A study of Rattus norvegicus with 241 samples.

Results

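Basal and luminal mammary epithelial cells of 9 young virgin female ACI rats that received vehicle alone were compared by bulk RNA-seq. The members were the 18 samples labelled as control samples of normal ACI glands on day 0, day 7 or day 14, taken from the 241 samples of the series by those labels alone. Each rat gave 1 basal and 1 luminal sample, so that the comparison was made within rats. The study as a whole asked what a short inhibition of TGFβ signaling does to mammary epithelium in ACI and SD rats. Its TGFBRi, LY2157299, blocks the kinase of the TGFβ type I receptor and was given by oral gavage at 75 mg/kg, 2 doses per day for 10 days. The 9 rats described here received the vehicle on the same schedule from about 35 days of age, and 3 of them were killed at each of day 0, day 7 and day 14 after dosing ended. Basal cells were sorted as CD24+CD29high and luminal cells as CD24+CD29low events among live cells without CD31 and CD45, so the genes of these 4 antigens were part of the gate. Further rats served for comparison only. They were 9 ACI rats given TGFBRi on the same schedule and days (18 bulk samples), 4 SD rats given vehicle from about 24 days of age and taken on day 0 (8 bulk samples), and 3 ACI rats given vehicle and taken on day 0, whose sorted cells were profiled as 6 single-cell libraries. ACI is an inbred strain, while SD rats are outbred.

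The bulk values were normalized counts, that is, reads on a gene divided by a size factor of the sample, and the basal and luminal samples of ACI rats had been scaled together. Reads on genes ranged from 12382292 to 23171710 in basal and from 16109510 to 23206431 in luminal samples, with no difference within rats beyond their spread (exact sign-flip permutation test of 9 rats, two-sided p = 0.383). More genes were above 0 in the basal than in the luminal sample of 9 of 9 rats, by a median of 314 genes, and the 10 highest genes took less of the total, with medians of 7.48% and 11.4% (exact p = 0.00391 for each measure, the smallest that 9 pairs allow). Both measures of the libraries moved with cell type, and their part in the results below was not tested. A pair of rats stood apart before any gene was considered. The normalized values of LD2LR (day 7, replicate 9) summed to 1.99e+07 in basal and 2.89e+07 in luminal cells, and those of the basal sample of LD11L (day 14, replicate 6) to 2.52e+07, while the other 15 samples lay between 1.22e+07 and 1.77e+07. The profile of basal-luminal differences of LD11L also had the lowest correlation with the mean of the other 8 rats (r = 0.67 over 14607 genes, against 0.74 to 0.87 in the others, as a description across genes). Of LD2LR, the title and treatment label read control while a free-text description reads as treated, and it was kept as control. Counts over all genes, and list counts that moved widely, are given with and without both.

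The mammary epithelium is a bilayer. Luminal cells line the ducts and alveoli and divide into cells that carry the estrogen and progesterone receptors and cells that can mature into milk-secreting alveolar cells. Basal cells lie on the basement membrane, most are contractile myoepithelial cells that eject milk in response to oxytocin, and the basal layer also holds cells with regenerative capacity in transplants. Keratins, contractile proteins, adhesion molecules and lineage transcription factors tell the layers apart. In sorted pools of cells like these, fewer cells of a type and less RNA per cell cannot be told apart.

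Of 14607 genes tested, 3566 (24.4%) were higher in basal and 2929 (20.1%) higher in luminal cells at an adjusted p of 0.05 or less (limma on log2 of the normalized count plus 1, rat as a block, Benjamini-Hochberg adjustment over all genes). Since so many genes passed, a stricter rule was counted too. It asks in addition for a difference of at least 4-fold and for 9 basal values that do not overlap the 9 luminal values, and it called 750 genes (5.13%) higher in basal and 423 (2.90%) higher in luminal cells. The called genes of this 4-fold rule had median log2 fold changes of 3.97 in the basal and −3.65 in the luminal direction, with extremes of 10.36 for COL2A1 and −6.89 for MFSD6L. Here and below a log2 fold change is the mean within-rat difference, basal minus luminal, of log2(normalized count + 1) with its standard error, a scale that understates differences of genes with few reads. The median over all genes was 0.14, and the counts and medians of every gene list are to be read beside it and beside the shares of 24.4% and 20.1%. Without LD11L and LD2LR, 7299 genes passed the first rule and 1592 the 4-fold rule. Among the lists below, the counts that moved most without both rats were those of the endothelial markers and the respiratory chain, given there, and small counts that changed from 2 to 1 (luminal side of the integrins and of the basal regulators) or from 1 to 2 (luminal side of the FGF family and basal side of the sort antigens).

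**Figure D1:**
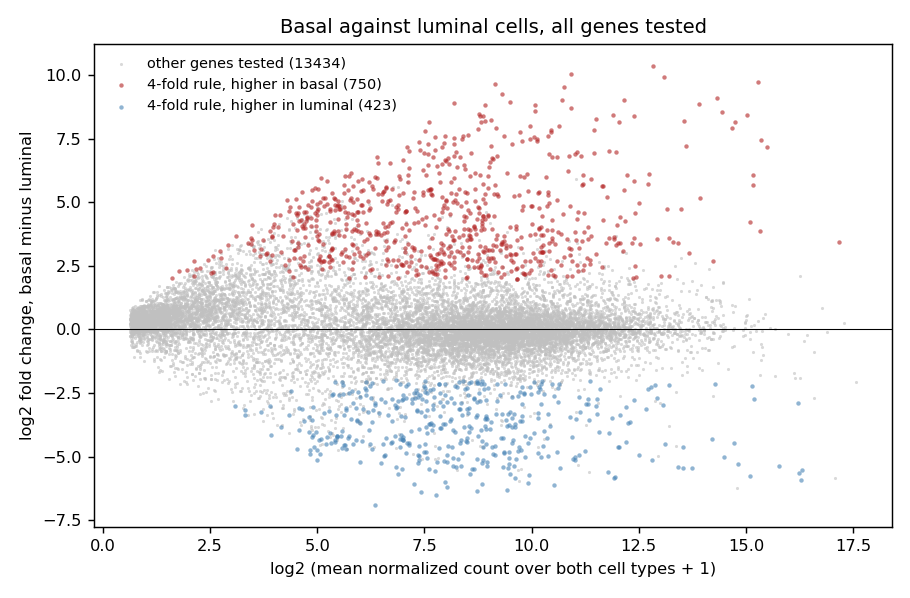
Log2 fold change (basal minus luminal, mean of 9 rats) of each of 14607 genes against the log2 of its mean normalized count plus 1 over both cell types. Red points are the 750 genes of the 4-fold rule that were higher in basal cells and blue points the 423 that were higher in luminal cells, which reach less far from 0 (−6.89) than the basal ones (10.36).

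The keratins followed the labels. Each of the 5 basal keratins measured was higher in basal cells by the 4-fold rule, with a median log2 fold change of 6.06. KRT5, the type II keratin that defines the basal layer, was at 16839 to 32380 normalized counts in basal samples (median 22377) and at 25.5 to 219 in luminal samples (median 68.2), or 8.21 ± 0.31 on the log2 scale (adjusted p = 3.0e-10). KRT14, its type I partner, lay between 54270 and 165959 (median 83075) in basal and between 239 and 2394 (median 676) in luminal samples (7.18 ± 0.29, adjusted p = 4.8e-10). No basal value of either gene came near a luminal one. Of the other members, KRT17 differed by 6.06 ± 0.29, KRT15 by 5.67 ± 0.22 and KRT16, which is induced in stressed epithelia, by 3.50 ± 0.33. The luminal keratins were less polarized. KRT18 ran from 27784 to 85290 (median 45544) in luminal and from 969 to 4784 (median 2182) in basal samples, with a log2 fold change of −4.46 ± 0.20 (adjusted p = 1.4e-09). KRT8, the partner of KRT18, was at 64486 to 162292 (median 123634) in luminal samples but still at 21712 to 39667 (median 33294) in basal ones (−1.92 ± 0.17), and KRT19 differed to a like extent (−2.13 ± 0.16). The basal and luminal values of all 3 were nonetheless apart. KRT20 had at most 1.75 normalized counts in basal and 6.35 to 58.8 in luminal samples (−4.16 ± 0.48). KRT23 was the exception among the 5 members tested: it lay between 1685 and 8551 in basal and 187 and 688 in luminal samples (2.85 ± 0.20). In the SD rats KRT23 had the opposite sign and did not pass the limma test (−0.72, adjusted p = 0.214).

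**Figure D2:**
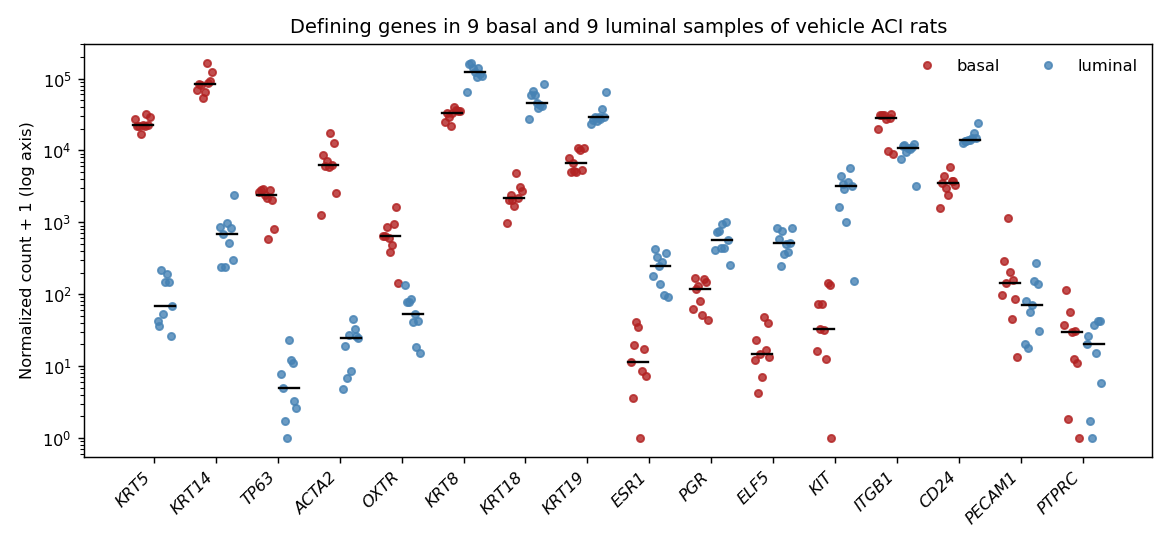
Normalized count plus 1 (log axis) of 16 defining and gate genes in each of the 9 basal (red) and 9 luminal (blue) samples, with the median as a black bar. Basal and luminal values are fully apart for KRT5, KRT14, TP63, ACTA2, OXTR, KRT8, KRT18, KRT19, ESR1, PGR, ELF5, KIT and CD24 and overlap for ITGB1, PECAM1 and PTPRC.

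The antigens of the gate are given for the record, since the sort used their proteins. ITGB1, which encodes CD29, lay between 9033 and 31846 normalized counts (median 28123) in basal and between 3219 and 12144 (median 10912) in luminal samples (1.27 ± 0.18). It was higher in the basal sample of 8 of 9 rats, with LD11L as the exception. CD24 was lower in basal samples, at 1559 to 5813 (median 3509) against 12864 to 24088 (median 14077) in luminal ones. PECAM1 (CD31) reached 1148 normalized counts in a day 0 basal sample and had medians of 142 and 70.1 in basal and luminal samples, and PTPRC (CD45) had medians of 28.9 and 18.9. The values of both overlapped between the cell types, and both antigens mark cells that the gate was set to remove.

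Most genes of the contractile apparatus of smooth muscle were on the basal side. Of 22 members tested, 20 were higher in basal cells, 16 of them by the 4-fold rule, none was higher in luminal cells, and the median log2 fold change was 3.83. CNN1, which encodes the actin-binding protein calponin, lay between 7886 and 88092 normalized counts (median 41151) in basal and between 6.82 and 140 (median 87.6) in luminal samples (9.09 ± 0.17, adjusted p = 8.8e-13). ACTG2, the smooth muscle γ-actin, was at 5570 to 79738 (median 26620) against 19.7 to 122 (median 57.1), with a log2 fold change of 8.86 ± 0.23. MYH11, the smooth muscle myosin heavy chain, was at 2058 to 89488 (median 43295) against 31.7 to 158 (median 75.6), or 8.54 ± 0.42. The lowest basal value of each lay far above the highest luminal value, although MYH11 varied widely among basal samples, with its lowest value in LD2LR. ACTA2, the α-smooth muscle actin used to stain the myoepithelium, was at 1248 to 17294 (median 6299) in basal and at 3.79 to 43.7 (median 23.8) in luminal samples (8.44 ± 0.28). Actin genes share near-identical coding sequence, so reads of ACTA2 and ACTG2 could in part have been split between them. TAGLN, another actin-binding protein of smooth muscle, differed by 7.90 ± 0.28. OXTR, the oxytocin receptor through which milk ejection is triggered, was lower in level and less different, at 143 to 1616 (median 636) against 14.3 to 133 (median 52), or 3.57 ± 0.32. The members that did not pass the test were both transcriptional regulators of the group: SRF, the serum response factor, which differed by −0.20 ± 0.18 (adjusted p = 0.395), and MYOCD, its coactivator myocardin. SRF was chosen after its values were seen.

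Serum response factor binds CArG boxes, which are known from promoters of contractile genes, and the ACTA2 promoter is shown because that gene defines the myoepithelium here. The window holds the 250 bases before and the 50 bases after the annotated start (RefSeq, rat build GRCr8, chr1:241172454-241172753, minus strand), and capitals mark its 2 matches to the CArG box with at most 1 mismatch, which begin 134 and 84 bases before the start.
ACTA2: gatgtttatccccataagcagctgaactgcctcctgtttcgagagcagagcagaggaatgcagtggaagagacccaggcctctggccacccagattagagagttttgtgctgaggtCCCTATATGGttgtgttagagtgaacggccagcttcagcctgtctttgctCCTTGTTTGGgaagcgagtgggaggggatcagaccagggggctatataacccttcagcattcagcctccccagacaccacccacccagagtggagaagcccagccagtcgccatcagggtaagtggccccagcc
Of the contractile genes, 14 have a single window, and 5 of these held a match with at most 1 mismatch. The share was 21.3% over the 33469 windows of all genes, where a gene may have several. An exact match was found in 1 of 14 (SRF itself) and in 1.64% of all windows, both strands searched. These counts describe letters in short windows and say nothing of binding.

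Basement membrane genes were higher in basal cells for 13 of 16 members tested and higher in luminal cells for none, with a median log2 fold change of 2.77. LAMA1, the α1 chain of laminin, had 490 to 7678 normalized counts (median 3744) in basal and 0 to 9.40 (median 1.51) in luminal samples (10.03 ± 0.53, adjusted p = 4.1e-09). COL17A1, the transmembrane collagen of hemidesmosomes, lay between 3447 and 28174 (median 18728) against 0.829 to 49.5 (median 14.8), or 9.93 ± 0.54. COL7A1, the collagen of anchoring fibrils, was at 460 to 3869 (median 2055) against 0.829 to 14.5 (median 10.9), or 7.50 ± 0.40. Luminal values of these 3 genes were at most 49.5 normalized counts. The members that did not pass the test were LAMB2, LAMA4 and FREM2. Among integrins, 7 of 11 members tested were higher in basal and 2, ITGA8 and ITGB3, higher in luminal cells (24.4% and 20.1% of all genes tested), and the median log2 fold change was 1.27. ITGA1, a collagen receptor subunit, was at 151 to 3381 (median 1227) against 2.92 to 42.2 (median 11.2), with a log2 fold change of 6.16 ± 0.52. ITGB6, the β subunit of an integrin that activates latent TGFβ, was at 1353 to 5422 (median 3715) against 55.5 to 230 (median 105.5), or 4.84 ± 0.17.

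Of 25 junction genes tested, 17 were higher in luminal and 6 higher in basal cells (20.1% and 24.4% of all genes tested), with a median log2 fold change of −1.33. Claudins, which seal tight junctions near the lumen, were on the luminal side. CLDN4 lay between 48416 and 264221 normalized counts (median 149838) in luminal and between 477 and 10523 (median 2870) in basal samples (−5.52 ± 0.24, adjusted p = 9.8e-10). CLDN7 differed by −5.72 ± 0.30 and CLDN3 by −5.45 ± 0.28. Neither overlapped between cell types, which the 4-fold rule that named them requires. Some desmosomal and classical cadherins were on the basal side. The desmocollin DSC3 was at 931 to 3878 (median 2099) in basal and at 0 to 30.6 (median 3.77) in luminal samples (8.83 ± 0.50), the desmoglein DSG3 differed by 6.78 ± 0.50, and CDH3, which encodes P-cadherin, by 5.34 ± 0.34. The desmocollin DSC2, named after its values were seen, was instead higher in luminal cells (−0.74 ± 0.23, adjusted p = 0.0179). CDH1, which encodes E-cadherin and was also chosen after its values were seen, had overlapping values in the cell types, from 2858 to 21421 in basal and from 4190 to 44157 in luminal samples (−0.83 ± 0.23, adjusted p = 0.00978).

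Transcriptional regulators of basal identity were higher in basal cells for 15 of 19 members tested and higher in luminal cells for 2, BCL11B and SOX9, with a median log2 fold change of 2.84. TP63, the p53 family member required for basal epithelium, was at 578 to 2896 normalized counts (median 2397) in basal and at 0 to 22.3 (median 3.92) in luminal samples (8.58 ± 0.49, adjusted p = 9.4e-09). Its lowest basal values were those of LD11L and LD2LR, and every other basal sample was at 2050 or more. SNAI2, which encodes the zinc-finger repressor Slug, was at 1233 to 3871 (median 1429) against 1.50 to 13.7 (median 6.59), or 8.01 ± 0.39. BNC1, a zinc-finger protein of stratified epithelia, had 619 recovered reads over the 9 basal samples and none over the 9 luminal ones, which makes it at least 197-fold higher in basal cells with a floor of 3 reads over the luminal group. ID4, an inhibitor of basic helix-loop-helix factors, was at 4016 to 12116 (median 6659) against 73.4 to 1459 (median 470), or 4.10 ± 0.31. The 2 members that did not pass the test were WWTR1 and NFIB.

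Of 22 genes known from hormone-sensing luminal cells, 14 were higher in luminal and 4 higher in basal cells, with a median log2 fold change of −1.44. ESR1, the estrogen receptor, was at 90.4 to 421 normalized counts (median 244) in luminal and at 0 to 40.4 (median 10.3) in basal samples (−4.36 ± 0.55, adjusted p = 1.8e-05). PGR, the progesterone receptor, was at 257 to 1019 (median 569) in luminal and at 42.6 to 169 (median 116) in basal samples (−2.57 ± 0.20). Both receptors were fully apart between the cell types, and PGR was at 42.6 or more in every basal sample. PRLR, the prolactin receptor, differed by −4.86 ± 0.27, FOXA1, a pioneer factor for the estrogen receptor, by −4.59 ± 0.35, and SPDEF, an ETS factor of secretory epithelia, by −5.11 ± 0.42. The 4 members on the basal side were TBX2, a T-box repressor (5.94 ± 0.37), CALCA, which encodes calcitonin and its related peptide (3.66 ± 0.48), TFF3 and WNT5A.

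Genes of luminal progenitors and of alveolar secretion were mostly on the luminal side. Of 28 members tested, 23 were higher in luminal and 2 higher in basal cells, and the median log2 fold change was −4.06. KIT, a receptor tyrosine kinase of luminal progenitors, was at 152 to 5716 normalized counts (median 3155) in luminal and at 0 to 144 (median 31.8) in basal samples (−6.09 ± 0.33, adjusted p = 5.4e-09). The lowest luminal and the lowest basal value of KIT both came from LD2LR, whose luminal value of 152 was close to the highest basal value of 144. ELF5, the ETS factor that directs alveolar fate, was at 245 to 841 (median 507) against 3.26 to 47.3 (median 13.9), or −5.05 ± 0.32. MUC1, an apical mucin, differed by −5.84 ± 0.35. The members on the basal side were 2 aldehyde dehydrogenases, ALDH1A1 (3.04 ± 0.50) and ALDH1A3.

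Milk protein genes were detected in luminal cells of these virgin rats, at levels that varied widely by gene and by rat. LALBA, which encodes the α-lactalbumin of lactose synthesis, was at 38090 to 433175 normalized counts (median 116473) in luminal and at 328 to 37138 (median 1408) in basal samples (−5.91 ± 0.45, adjusted p = 1.3e-07). The casein genes named here were chosen after their values were seen. CSN1S1, an α-casein, was at 69436 to 404679 (median 103026) in luminal and at 903 to 21707 (median 1462) in basal samples (−5.66 ± 0.32). CSN2, the β-casein, ranged from 721 to 237422 (median 6218) in luminal and from 0 to 28653 (median 168) in basal samples (−6.21 ± 0.48), and CSN3, the κ-casein, differed by −5.84 ± 0.39. CSN2 and CSN3 were higher in the luminal sample of 9 of 9 rats, yet the values overlapped between cell types. The basal sample of LD11L held the most of both, at 28653 and 73714, more than the lowest luminal sample. STAT5, which carries the prolactin signal to milk protein genes, is known to bind TTCNNNGAA. The promoter windows of the 3 casein genes that hold this motif, all of the same cluster, are shown with every match in capitals. They are from RefSeq on build GRCr8: CSN1S1 at chr14:20638800-20639099 (minus strand), CSN1S2A at chr14:20574422-20574721 (minus strand) and CSN2 at chr14:20601574-20601873 (plus strand).
CSN1S1: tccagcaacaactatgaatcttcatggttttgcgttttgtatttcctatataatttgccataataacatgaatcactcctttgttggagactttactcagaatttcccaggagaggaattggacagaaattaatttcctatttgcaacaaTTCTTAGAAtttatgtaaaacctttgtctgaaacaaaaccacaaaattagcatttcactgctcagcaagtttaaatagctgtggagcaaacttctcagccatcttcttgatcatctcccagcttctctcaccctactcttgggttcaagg
CSN1S2A: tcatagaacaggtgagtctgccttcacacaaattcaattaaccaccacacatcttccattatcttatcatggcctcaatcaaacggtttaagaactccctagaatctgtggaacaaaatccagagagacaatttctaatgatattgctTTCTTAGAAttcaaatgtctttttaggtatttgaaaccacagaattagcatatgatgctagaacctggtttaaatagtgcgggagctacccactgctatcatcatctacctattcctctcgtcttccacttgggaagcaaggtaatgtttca
CSN2: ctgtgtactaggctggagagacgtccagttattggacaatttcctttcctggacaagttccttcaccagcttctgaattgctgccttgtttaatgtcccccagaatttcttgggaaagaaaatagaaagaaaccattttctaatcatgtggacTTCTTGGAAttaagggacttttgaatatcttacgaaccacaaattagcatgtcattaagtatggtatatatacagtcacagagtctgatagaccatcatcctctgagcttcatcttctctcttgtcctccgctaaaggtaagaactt
The match begins 100 bases before the start in CSN1S1 and 97 bases before it in CSN2. Of 7 milk protein genes, each with a single window, 4 held the motif (the 3 shown and GLYCAM1), while CSN3, LALBA and WAP did not. The motif was in 8.87% of the 33469 windows of all genes, where a gene may have several. CSN1S2A, another α-casein, had log2 fold change −5.31 ± 0.44 and its values overlapped, at 331 to 26118 in luminal and 1.71 to 651 in basal samples.

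**Figure D3:**
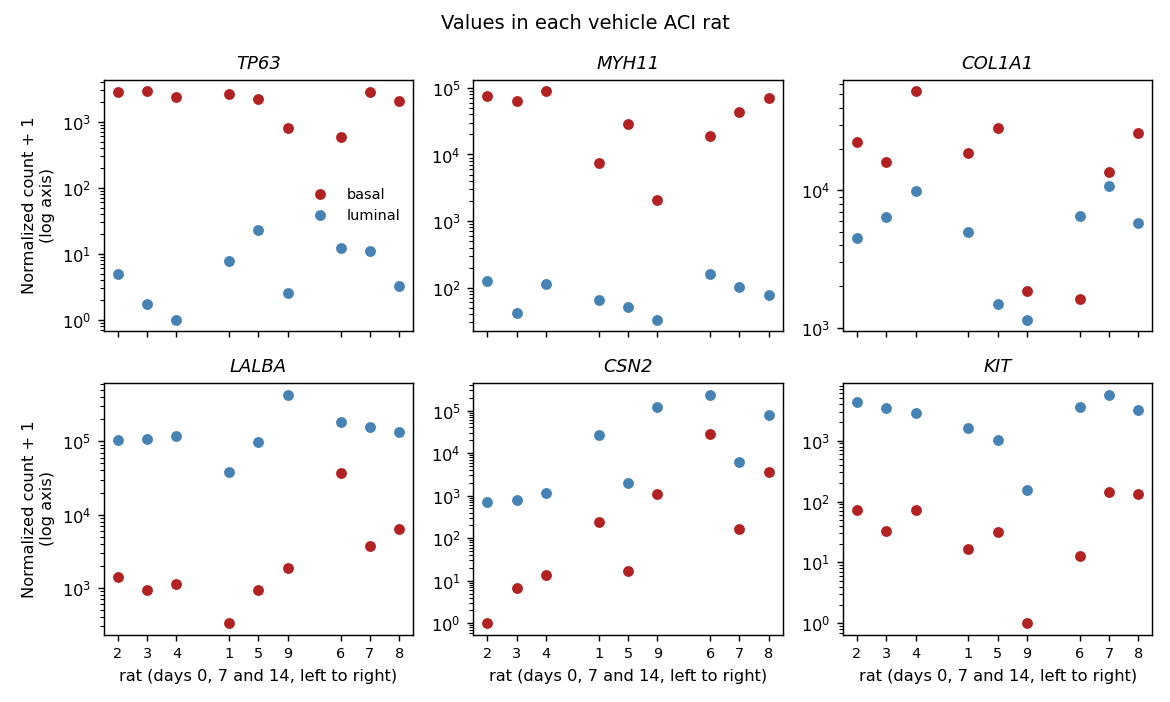
Normalized count plus 1 (log axis) of 6 genes in the basal (red) and luminal (blue) sample of each rat, with rats numbered by replicate and placed by day 0, day 7 and day 14. TP63 and MYH11 stay apart in each rat, COL1A1 overlaps on day 7 and day 14, and the basal sample of rat 6 (LD11L) has the highest basal values of LALBA and CSN2.

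The TGFβ list held ligands, latent binding proteins, receptors, SMADs and the thrombospondin THBS1. Of its 18 members tested, 11 were higher in basal and 2 higher in luminal cells, with a median log2 fold change of 0.79. The ligands on the luminal side were TGFB3, at 1442 to 9029 normalized counts (median 5061) in luminal and 181 to 1055 (median 475) in basal samples (−3.32 ± 0.19, adjusted p = 8.6e-09), and TGFB2, at 443 to 1016 (median 770) against 99.8 to 359 (median 259) (−1.65 ± 0.26). The values of both ligands were fully apart, which for TGFB3 the 4-fold rule that named it requires. TGFB1 did not pass the test (−0.12 ± 0.25, adjusted p = 0.723), and both it and TGFB2 were chosen after their values were seen. Both coreceptors and 3 of the 4 latent binding proteins tested were higher in basal cells, while LTBP1, named after its values were seen, did not pass (−0.06 ± 0.31, adjusted p = 0.888). LTBP4, which stores latent TGFβ in the matrix, was at 528 to 12193 (median 4488) against 34.9 to 503 (median 157), or 4.58 ± 0.39. ENG, the coreceptor endoglin, was at 1258 to 8104 (median 3924) against 96.8 to 579 (median 320), or 3.84 ± 0.20. TGFBR3, the coreceptor betaglycan, was at 190 to 2608 (median 1806) against 42.8 to 309 (median 131), or 3.23 ± 0.34. The signaling receptors had smaller differences. TGFBR1, the kinase that TGFBRi blocks, was at 61.3 to 1503 (median 988) in basal and 68.2 to 1683 (median 1217) in luminal samples (−0.58 ± 0.37, adjusted p = 0.229). Without LD11L, which was at −4.20, its log2 fold change was −0.13 (adjusted p = 0.393). TGFBR2 was at 221 to 1974 (median 1137) against 95.2 to 885 (median 547), or 0.79 ± 0.27 (adjusted p = 0.0313), and LD11L was the 1 rat of opposite sign (−1.72). Without LD11L the log2 fold change was 1.10 (adjusted p = 1.8e-06), and in the 8 fits that left out another rat it was 0.71 to 0.80 and the call was lost.

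Known targets of TGFβ were higher in basal cells for 14 of 15 members tested, with a median log2 fold change of 2.28, and 1, JUNB, was higher in luminal cells. Several of these targets are also structural genes of basal cells, such as TAGLN and VIM. VIM, the intermediate filament vimentin, was at 13139 to 25845 normalized counts (median 17715) in basal and 323 to 1158 (median 654) in luminal samples (4.74 ± 0.17, adjusted p = 2.4e-10). IGFBP3, which binds insulin-like growth factors, was at 1504 to 3580 (median 2112) against 27.2 to 381 (median 98.4), or 4.47 ± 0.31. CTGF, a matrix-associated growth factor, was at 4051 to 13853 (median 7583) against 254 to 642 (median 362), or 4.41 ± 0.22. PMEPA1, a feedback inhibitor of TGFβ signaling, differed by 2.04 ± 0.15. None of these 4 genes overlapped between cell types, which the 4-fold rule that named them requires.

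BMP ligands, their antagonists and ID genes were higher in basal cells for 10 of 20 members tested and higher in luminal cells for 3 (24.4% and 20.1% of all genes tested), with a median log2 fold change of 1.63. FST, an antagonist of activin, was at 1563 to 14862 normalized counts (median 4670) in basal and 46.4 to 357 (median 86.3) in luminal samples (5.63 ± 0.37). BMP7 was at 1325 to 4314 (median 2466) against 152 to 321 (median 244), or 3.36 ± 0.19. On the luminal side, BMPR1B, a type I BMP receptor, was at 133 to 309 (median 257) against 3.46 to 45.4 (median 8.26) in basal samples (−4.32 ± 0.28), and BMP3, an atypical ligand, differed by −3.34 ± 0.52.

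Wnt genes were higher in basal cells for 24 of 42 members tested and higher in luminal cells for 6, with a median log2 fold change of 1.31. WNT10A, a ligand, had 4052 recovered reads over the 9 basal samples and none over the 9 luminal ones, at least 1346-fold higher in basal cells with the same floor of 3 reads. DKK3, a secreted member of the Dickkopf family, was at 3150 to 12749 normalized counts (median 8354) in basal and 8.29 to 72.4 (median 31.3) in luminal samples (8.14 ± 0.32, adjusted p = 3.9e-10). NKD1, an intracellular antagonist induced by Wnt signaling, was at 380 to 1653 (median 1008) against 2.35 to 30.3 (median 8.24), or 6.75 ± 0.36. The luminal side held the ligand WNT5B, at 588 to 3636 (median 829) against 32.3 to 257 (median 139) in basal samples (−3.26 ± 0.33), and the R-spondin RSPO3, which amplifies Wnt signals, at 12.5 to 74.6 (median 33.7) against 0 to 10.4 (median 1.47) (−3.35 ± 0.45). Of 17 Notch genes tested, 4 were higher in basal and 6 higher in luminal cells (24.4% and 20.1% of all genes tested). The ligand DLL1 was at 889 to 7697 (median 3581) in basal and 5.99 to 67.1 (median 47.3) in luminal samples (6.82 ± 0.31). The ligand JAG1, chosen after its values were seen, differed by 2.28 ± 0.29 and was higher in the basal sample of 8 of 9 rats, LD11L being the exception. Of the receptors, NOTCH4 was at 298 to 1066 (median 432) against 69.7 to 248 (median 117) in basal samples (−2.05 ± 0.27), and NOTCH3, also chosen after its values were seen, had overlapping values with a log2 fold change of −3.06 ± 0.58.

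In the EGF family, NRG1 and NRG2 were on the other side from their receptor ERBB4. Of 14 members tested, 4 were higher in basal and 6 higher in luminal cells (24.4% and 20.1% of all genes tested). The neuregulin NRG1 was at 7394 to 16128 normalized counts (median 10286) in basal and 117 to 807 (median 382) in luminal samples (4.96 ± 0.24, adjusted p = 1.9e-09), and NRG2 differed by 3.89 ± 0.35. ERBB4, a receptor for neuregulins, was at 50.8 to 551 (median 251) in luminal and 0 to 46.2 (median 10.3) in basal samples (−4.47 ± 0.43). It had no overlap, which the 4-fold rule that named it requires. NRG4, named after its values were seen, did not pass (−1.22 ± 0.56, adjusted p = 0.0947). FGF genes were higher in basal cells for 13 of 15 members tested and higher in luminal cells for 1, FGFR3, with a median of 2.48. FGFRL1, a decoy receptor, was at 753 to 4494 (median 2966) against 42.8 to 89.4 (median 59.2), or 5.28 ± 0.23. The ligand FGF1 differed by 3.23 ± 0.22, SPRY1, a feedback inhibitor of receptor tyrosine kinases, by 2.69 ± 0.14, and the ligands FGF2 and FGF7, both low in every sample (at most 68.9 and 54.2 normalized counts), by 2.52 ± 0.44 each. In the IGF axis, 9 of 13 members tested were higher in basal cells and 1, INSR, higher in luminal cells. IGFBP2, a binding protein, was at 42990 to 188100 (median 58461) in basal and 19.7 to 267 (median 80.1) in luminal samples (9.74 ± 0.31, adjusted p = 9.6e-11). IGFBP4 differed by 3.50 ± 0.29.

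**Figure D4:**
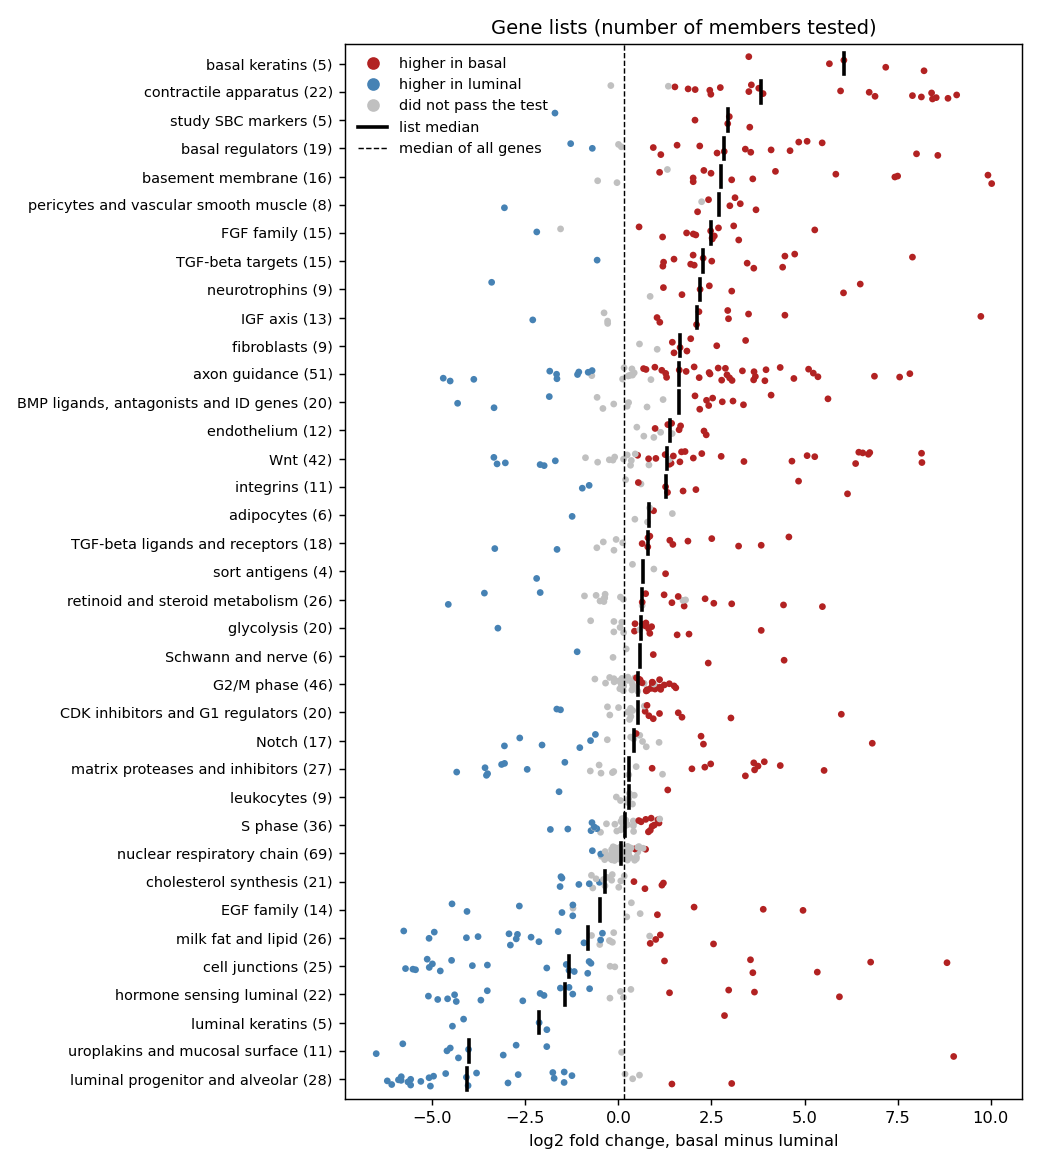
Log2 fold change (basal minus luminal) of every member tested of 37 gene lists, one point per gene, with the list median as a black bar and the median of all genes (0.14) as a dashed line. Red points were higher in basal and blue points higher in luminal cells at an adjusted p of 0.05 or less, grey points did not pass, and the list medians run from −4.06 for luminal progenitor and alveolar genes to 6.06 for basal keratins.

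Of 51 genes named for axon guidance tested, 32 were higher in basal and 10 higher in luminal cells (24.4% and 20.1% of all genes tested), with a median log2 fold change of 1.63. The secreted semaphorins SEMA3A and SEMA3D, which repel growth cones, were nearly absent from luminal cells. SEMA3A was at 63.4 to 694 normalized counts (median 429) in basal and 0 to 9.85 (median 0) in luminal samples (7.56 ± 0.47), and SEMA3D differed by 6.88 ± 0.57. SEMA5A, a transmembrane semaphorin, was at 731 to 4773 (median 2637) against 3.32 to 17.3 (median 10.9), or 7.83 ± 0.32. NTN1, the ligand netrin 1, was the luminal member that met the 4-fold rule, at 249 to 1176 (median 687) in luminal and 14.6 to 103.96 (median 44.8) in basal samples (−3.89 ± 0.20). Neurotrophins and their receptors were higher in basal cells for 7 of 9 members tested and higher in luminal cells for 1, SORT1. NTRK3, the receptor of neurotrophin 3, was at 181 to 699 (median 515) against 1.52 to 9.85 (median 4.37), or 6.50 ± 0.32, its ligand NTF3 differed by 6.05 ± 0.48 and NTF4 by 3.04 ± 0.27.

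Matrix proteases and their inhibitors had 11 of 27 members tested higher in basal and 8 higher in luminal cells (24.4% and 20.1% of all genes tested). On the basal side, MMP16, a membrane-bound metalloproteinase, was at 63.4 to 385 normalized counts (median 225) against 0 to 13.6 (median 4.70) in luminal samples (5.53 ± 0.54), the metalloproteinase ADAMTS9 differed by 4.35 ± 0.24 and the protease inhibitor RECK by 3.92 ± 0.27. On the luminal side, the stromelysins MMP3 and MMP10 stood at 2962 to 8089 (median 4334) and 556 to 1507 (median 807) in luminal samples, with log2 fold changes of −3.55 ± 0.17 and −3.52 ± 0.19. PLAU, the urokinase plasminogen activator, was at 4519 to 21712 (median 10454) in luminal and 676 to 1773 (median 1267) in basal samples (−3.14 ± 0.29). Of 26 genes of retinoid and steroid metabolism, 11 were higher in basal and 3 higher in luminal cells (same shares of all genes), with a median log2 fold change of 0.64. CRABP2, which carries retinoic acid to its receptor, was at 1149 to 7649 (median 1792) in luminal and 26.4 to 483 (median 75.4) in basal samples (−4.57 ± 0.33). The retinoic acid receptor RARB differed by 2.33 ± 0.46, and HSD11B1, which regenerates active glucocorticoid, by −3.60 ± 0.26.

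Genes of milk fat and lipid synthesis were higher in luminal cells for 15 of 26 members tested and higher in basal cells for 4, with a median log2 fold change of −0.82. OLAH, the thioesterase that releases medium-chain fatty acids, was at 45644 to 142307 normalized counts (median 58684) in luminal and 434 to 4908 (median 969) in basal samples (−5.77 ± 0.31, adjusted p = 5.3e-09). THRSP, a lipogenic regulator, differed by −4.95 ± 0.27 and BTN1A1, the butyrophilin of the milk fat globule membrane, by −5.09 ± 0.22. Cholesterol synthesis genes had 4 of 21 members higher in basal and 6 higher in luminal cells (24.4% and 20.1% of all genes tested), none at 4-fold. Of 69 nuclear genes of the respiratory chain, 2 were higher in each direction and the median was 0.08, so that these genes as a list lay at the median of all genes. Without LD11L and LD2LR, 10 were higher in each direction and the median was −0.03. Glycolysis genes had 12 of 20 members higher in basal cells and 1 higher in luminal cells, with a median of 0.61. The isoenzymes at either end were the platelet-type phosphofructokinase PFKP, at 2770 to 5324 (median 3792) in basal and 123 to 548 (median 248) in luminal samples (3.84 ± 0.20), and the aldolase ALDOC, at 2595 to 6047 (median 4392) in luminal and 181 to 937 (median 379) in basal samples (−3.24 ± 0.24).

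Uroplakins and other genes of mucosal surfaces were higher in luminal cells for 9 of 11 members tested, with a median log2 fold change of −4.03, and 1 was higher in basal cells. UPK3A, a uroplakin of the urothelial plaque, was at 79.97 to 1072 normalized counts (median 344) in luminal and 0 to 13.6 (median 4.89) in basal samples (−6.51 ± 0.57), AQP5, a water channel of gland ducts, at 2328 to 13161 (median 8033) against 7.34 to 390 (median 178) (−5.80 ± 0.34), and the surface protease TMPRSS2 differed by −4.61 ± 0.22. The exception was UPK1B, a tetraspanin uroplakin, at 1834 to 6941 (median 2981) in basal and 0.783 to 13.6 (median 6.09) in luminal samples (9.01 ± 0.35, adjusted p = 3.6e-10). UPK3A and UPK1B, members of the same plaque complex, were on opposite sides by the 4-fold rule.

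Genes of the G2/M phase differed by small amounts, whereas a few G1 regulators differed widely. Of 46 genes of the G2/M phase, 22 were higher in basal and none higher in luminal cells, with a median log2 fold change of 0.54 and no member at 4-fold. MKI67, which encodes the proliferation antigen Ki67 and was chosen after its values were seen, was at 255 to 1513 normalized counts (median 608) in basal and 44.2 to 1104 (median 200) in luminal samples (1.54 ± 0.25). It was higher in the basal sample of 8 of 9 rats with overlapping ranges. Genes of the S phase had 10 of 36 members higher in basal and 7 higher in luminal cells (24.4% and 20.1% of all genes tested), shares that apply to the next list too. Of 20 CDK inhibitors and G1 regulators, 9 were higher in basal and 2 higher in luminal cells, with a median log2 fold change of 0.54. CCND2, which encodes cyclin D2, was at 1092 to 3080 (median 1612) in basal and 9.07 to 55.5 (median 24.9) in luminal samples (5.99 ± 0.24), and CDKN1C, which encodes the inhibitor p57, at 595 to 3029 (median 1991) against 143 to 363 (median 176) (3.02 ± 0.20).

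Of the 15 genes per direction with the largest differences, many belong to none of the lists. The basal ones include matrix genes. COL2A1, the fibrillar collagen known from cartilage, was at 1852 to 27434 normalized counts (median 16703) in basal and 0 to 48.2 (median 10.7) in luminal samples (10.36 ± 0.61, adjusted p = 1.2e-08), FMOD, the collagen-binding proteoglycan fibromodulin, at 1975 to 14706 (median 9440) against 4.76 to 48.7 (median 10.6) (9.00 ± 0.37), and the metalloproteinase ADAMTS18 differed by 8.95 ± 0.57. They also include secreted or membrane regulators. SOSTDC1, an antagonist of BMP and Wnt signals, was at 788 to 2384 (median 1021) against 0 to 17.3 (median 0) (9.25 ± 0.46), and DLK1, a non-canonical Notch ligand, at 134 to 2208 (median 743) against 0 to 3.05 (median 0.754) (8.81 ± 0.46). The neuronal leucine-rich repeat protein LRRN1 differed by 9.63 ± 0.36 and the calpain-like CAPN6 by 9.54 ± 0.54. TMEM200A had 6211 recovered reads in basal and 2 in luminal samples, a ratio of 3266 with a 95% counting interval of 904 to 26974. Among luminal genes, several act at the apical or plasma membrane. MFSD6L, a membrane protein of the major facilitator superfamily, was at 84.9 to 250 (median 145) in luminal and 0 to 3.51 (median 0) in basal samples (−6.89 ± 0.40). The nucleoside transporter SLC28A3 differed by −6.39 ± 0.53, the glucose transporter SLC5A1 by −6.06 ± 0.39, MAL2, which sorts cargo to the apical surface, by −6.33 ± 0.52, and the adhesion molecule NECTIN4 by −6.30 ± 0.44. VTCN1, a B7 family inhibitor of T cells, was at 1106 to 2410 (median 1874) in luminal and 0.734 to 94.1 (median 37.7) in basal samples (−6.05 ± 0.43), and the GPI-anchored glycoprotein GP2 differed by −5.82 ± 0.30. SECTM1A, PDZK1IP1 and RASAL1 completed the 15, at −6.19 ± 0.54, −6.09 ± 0.62 and −5.99 ± 0.45.

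Markers of secretory basal cells (SBC), a basal population that the study describes, form a list that was chosen on samples of this series and is not independent evidence of direction. In the bulk samples 4 of 5 members were higher in basal and 1 higher in luminal cells, and all were singled out with their values seen. SPARCL1, a matrix glycoprotein, was at 367 to 6313 normalized counts (median 1282) in basal and 44.4 to 395 (median 116) in luminal samples (3.53 ± 0.34). S100A4 differed by 2.98 ± 0.36, IGFBP7 by 2.94 ± 0.27 and ID3 by 2.06 ± 0.33. Each of these 4 genes was higher in the basal sample of every rat. Their values nonetheless overlapped between cell types, and none met the 4-fold rule. EPAS1, which encodes the hypoxia-inducible factor HIF2α, was at 58.7 to 2940 (median 1735) in luminal and 8.32 to 2740 (median 598) in basal samples, with overlapping values (−1.71 ± 0.48, adjusted p = 0.00952).

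Markers of other cell types were present and in part moved with cell type. Of 9 fibroblast markers tested, 7 were higher in basal and none higher in luminal cells, and their summed level ran from 22236 to 142325 normalized counts in basal samples (0.0881% to 0.995% of the total) and from 6071 to 37841 in luminal ones (0.0210% to 0.214%). COL3A1, a fibrillar collagen, was at 5116 to 65332 (median 37836) in basal and 1837 to 21904 (median 8647) in luminal samples (1.84 ± 0.37, adjusted p = 0.00108). COL1A1, chosen like COL3A1 after its values were seen, was at 1621 to 52782 (median 18638) in basal and 1139 to 10822 (median 5818) in luminal samples (1.49 ± 0.46, adjusted p = 0.0167). DCN differed by 1.66 ± 0.17 and PDGFRA by 1.04 ± 0.61 (adjusted p = 0.184), and both were chosen in the same way. Without LD11L, PDGFRA differed by 1.54 and passed the limma test (adjusted p = 0.0158). LUM and POSTN, matrix genes that met the 4-fold rule, differed by 2.64 ± 0.21 and 3.42 ± 0.30. Of 12 endothelial markers, 7 were higher in basal and none higher in luminal cells, with sums of 247 to 11965 and 145 to 3624. Without LD11L and LD2LR, 11 of 12 were higher in basal cells, as were 9 of 9 fibroblast markers. In the SD rats 8 of 9 fibroblast markers were higher in basal cells, beside 29.4% of all genes tested there. In the single-cell sums, whose cells the study had filtered by keratin reads, 3 of 3 fibroblast markers tested were (33.5% of all genes). Pericyte markers were higher in basal cells for 6 of 8 and higher in luminal cells for 1 (NOTCH3). Their sum was at 228 to 4179 (median 1014) in basal and 182 to 2973 (median 1819) in luminal samples. It was higher in the basal sample of 3 of 9 rats, but NOTCH3 made up much of it in luminal samples. NOTCH3 alone was at 2822 in the luminal and 358 in the basal sample of LD3L. Its luminal value was 1458 or more in every rat except LD2LR and LD5R. The sum is thus no measure of the other pericyte markers, and a sum without NOTCH3 was not tested. PDGFRB, a pericyte receptor chosen after its values were seen, was at 48.9 to 1041 (median 292) in basal and 0 to 104.3 (median 23.1) in luminal samples (3.70 ± 0.65). Leukocyte markers had 1 of 9 higher in each direction and sums of 1116 to 5426 and 548 to 3861, adipocyte markers 1 of 6 higher in each direction and sums of 327 to 4547 and 297 to 1639. Schwann cell markers had 3 of 6 higher in basal and 1 higher in luminal cells, with sums of 4755 to 17625 and 4174 to 9958. No marker was at 0 in all 18 samples. The summed levels of fibroblast and endothelial markers were higher in the basal sample of 8 and 7 of the 9 rats, the cell type that also held more of the matrix, contractile and growth factor genes above, and their part in those results was not tested.

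The level that a strongly polarized gene kept in the other cell type was measured for the same 15 genes per direction. The luminal samples held the basal genes at 0.0293% to 0.355% of their basal mean (median 0.182%), and the basal samples held the luminal genes at 0.322% to 4.01% of their luminal mean (median 2.06%). In the single-cell sums of other rats, the corresponding medians were 0.0723% and 0.120%. The study had removed cells that clustered with the other sort from those libraries, so the bulk and single-cell shares are unlike measures. These genes were chosen for their differences, so the shares are a description.

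The basal-luminal difference was compared between days by the sort by day terms of the same model. No gene of 14607 (0%) passed the limma test over all days, in which 1753 genes had an unadjusted p under 0.05 and the lowest adjusted p was 0.0696, whereas edgeR on the recovered reads called 18. In limma's contrast of day 14 against day 0 alone, 7 genes passed (0.0479%), namely APOLD1, IL23A, RCAN1, SCD, SELE, SLC7A7 and SSPO, with no adjustment for the number of contrasts. Over all days, without LD11L limma called 112 genes, without LD11R 8, and without both LD11L and LD2LR 39. The rule fixed the direction of the 4-fold genes in these rats, so their values by day are a description, with medians of 4.34, 3.64 and 4.13 for basal genes and −3.70, −3.80 and −3.64 for luminal genes on day 0, day 7 and day 14. Single members had wider ranges. The mean within-rat difference of TP63 was 10.37, 7.75 and 7.62 on the 3 days, and that of LALBA was −6.58, −7.13 and −4.02. Neither passed the limma test over all days (adjusted p = 0.331 for TP63 and 0.172 for LALBA). Luminal values of TP63 were near the floor, at 3.92, 0.729 and 0 normalized counts on day 0 and 1.59 to 22.3 later. CSN2 in luminal samples was at 721, 799 and 1146 normalized counts in the 3 rats of day 0, at 1965, 25996 and 120567 on day 7, and at 6218, 78510 and 237422 on day 14. The luminal level of this casein was thus lowest in the rats of day 0, in a pattern that was singled out after the values were seen.

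In the 9 rats given TGFBRi, 4046 of 15824 genes (25.6%) were higher in basal and 3191 (20.2%) higher in luminal cells, and 1167 of the 1173 genes of the 4-fold rule were called in the same direction, 747 of 750 basal and 420 of 423 luminal ones. No gene of 15824 (0%) had a sort by treatment term that passed in limma, in which 1127 had an unadjusted p under 0.05 and the lowest adjusted p was 0.216, and edgeR called none either. KRT5 differed by 7.91 ± 0.31 between cell types in treated rats and KRT18 by −4.68 ± 0.19, beside 8.21 and −4.46 in vehicle rats. These samples were scaled together with those of the vehicle rats.

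The same measure in rats that had no part in these calls gave the following. In the SD rats, whose samples had been scaled separately, 3784 of 12875 genes (29.4%) were higher in basal and 3151 (24.5%) higher in luminal cells. Of the genes of the 4-fold rule, 1167 were tested there and 1154 had the same sign, and 687 of 746 basal genes and 371 of 421 luminal genes were called in the same direction (92.1% and 88.1%). In edgeR on UMIs summed per single-cell library, 4142 of 12379 genes (33.5%) were higher in basal and 4196 (33.9%) higher in luminal cells, and of the 4-fold genes 609 of 616 basal and 383 of 384 luminal ones were called in the same direction. The 6 libraries held 877 to 2253 cells each, and 9 cell barcodes in all were shared between pairs of them. By their numbers, these are the cells that the study kept after filtering by expression. That filter had removed cells of one sort that clustered with the other, and cells with few keratin reads. Agreement in direction in the single-cell sums was thus in part set by the filter. Called in the opposite direction were CHAC1, a glutathione-degrading enzyme, and RT1-T24-3, an MHC class I gene with close paralogs, in SD rats (−1.07 and −1.48), and FLRT2, an adhesion molecule, in the single-cell sums (−0.93), and these 3 genes were singled out after their values were seen. The hormone receptors had unlike values in the data sets. The log2 fold change of ESR1 was −0.09 in SD rats and −6.54 in single-cell sums, and that of PGR was −0.17 and −3.28, beside −4.36 and −2.57 in the ACI bulk samples. KRT14 differed by 2.44 in SD rats and by 9.55 in single-cell sums, KRT5 by 4.46 and 9.29. Respiratory chain genes, at the all-gene median in ACI rats, were higher in luminal cells for 44 of 69 and higher in basal cells for 2 in SD rats, and 25 of 54 were higher in basal cells and 7 in luminal cells in the single-cell sums. G2/M genes were higher in basal cells for 26 of 46 in SD rats, while in the single-cell sums 6 of 42 were higher in basal and 10 higher in luminal cells. Of retinoid and steroid metabolism genes, 6 of 24 were higher in basal and 7 higher in luminal cells in SD rats. In the single-cell sums 5 of 16 were higher in basal and 7 higher in luminal cells. CDK inhibitors and G1 regulators had 3 of 20 higher in each direction in SD rats, and 8 of 17 basal and 3 luminal in the single-cell sums. Differences between strains or library types were not tested, since the data sets were scaled apart.

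**Figure D5:**
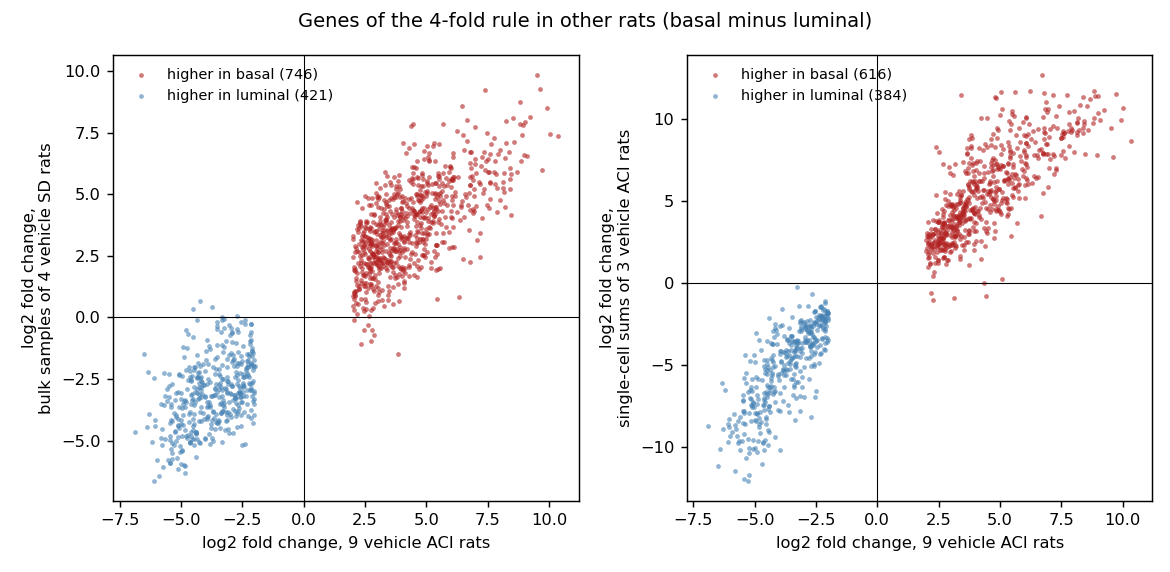
Log2 fold changes (basal minus luminal) of the genes of the 4-fold rule in the 9 vehicle ACI rats (x axis) against those in 4 vehicle SD rats (left) and in single-cell sums of 3 other vehicle ACI rats (right), red for genes higher in basal and blue for genes higher in luminal cells. In SD rats 1154 of 1167 and in single-cell sums 995 of 1000 genes have the same sign as in the ACI bulk samples.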

How the data were processed

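Total RNA of sorted basal and luminal cells was made into SMARTer v4 libraries (not strand-specific, under 10 ng of RNA) and sequenced as 75-base single reads. Per the labels and the study's methods, the authors used STAR 2.5.1b for alignment to rn6, took counts per RefSeq gene from HTSeq with strand ignored, and scaled them with DESeq2 1.30.1. Genes and antisense genes that overlap them cannot be told apart. The deposited bulk values are a normalized signal per gene symbol (counts divided by a size factor), and dividing by 1 step per sample returned whole reads for 100% of values (tolerance 0.001). The deposited single-cell values are UMI counts made by the authors with Cell Ranger 4.0.0 and filtered by them. Per the study's methods, the filters took out cells with few keratin reads or any PTPRC read. They also took out cells of one sort that lay in a cluster of the other. The UMI counts were summed per library with all deposited cells kept and no doublet call made. Coordinates of genes on rn6 were not used here, and promoter windows come from RefSeq on GRCr8.

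Samples were grouped by the labels of experiment, cell type, treatment, day and animal. Values were compared by limma 3.58.1 on log2(value + 1) (trend and robust options on, rat as a fixed block) for each gene with a summed value of 10 or more. The block follows from the animal named in the labels, and the deviations of basal and luminal samples of a rat from their group means correlated at r = −0.02 (LD11L) to 0.72, against −0.45 to 0.61 (median −0.05) in 72 pairs of different rats. Calls took p values adjusted by Benjamini and Hochberg at a threshold of 0.05, and the 4-fold rule added an absolute log2 fold change of 2 and no overlap. The single-cell sums were tested by edgeR 4.0.16 (quasi-likelihood, TMM, rat as a block). Alternatives were edgeR and DESeq2 1.42.0 on recovered reads, TMM scaling, a pseudocount of 8, other filters, no block, single days and leaving out each rat. Leaving out both LD11L and LD2LR was added after the data were seen. Fits were also run on simulated counts with planted differences, and the outcome is not reported here. Named genes were the 15 per direction with the largest differences among those of the 4-fold rule with a mean of at least 50 in the higher cell type, members of each list that met the 4-fold rule (the 3 largest per direction in lists with more than 6), and fixed defining genes. The values of some genes that the rule names are not reported here. Any gene outside this rule was chosen with its values seen, whether or not it is marked so where its values are given. The members, lists and rules were chosen with earlier results of these data known. Intervals and floors cover counting error only, and reads without molecular identifiers are not independent molecules. R 4.3.3, Python 3.11.15, numpy 2.4.6 and pandas 2.3.3 were used.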

Additional observations from a re-analysis of the deposited data

Results flagged for a closer look

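Within-rat differences (log2, basal minus luminal) and library measures were examined for a single rat far from the other 8, by the gap to its neighbour over the whole range. Of 162 measures 14 stood out, and 8 of the 14 were of LD11L (replicate 6) and 2 of LD2LR (replicate 9). A single measure stands out by chance in about 1 in 20. The measures share the same rats and many genes were chosen by their values, so the count of 14 cannot be judged by that rate. In LD11L, TGFBR1 differed by −4.20 while the other rats lay between −0.59 and 0.42, TGFBR2 by −1.72 (others 0.70 to 1.44), TGFB3 by −4.68 (others −3.66 to −2.69), and ITGB1 by −0.12 (others 1.33 to 1.72). In the same rat JAG1 differed by −0.21 (others 1.83 to 3.35), CDH1 by −2.78 (others −1.24 to −0.34) and EPCAM by 0.15 (others −1.82 to −0.93), and the 10 highest genes took 12.99% of its basal sample (others 6.02% to 8.48%). In LD2LR the luminal values summed to 2.89e+07 (others 1.22e+07 to 1.77e+07) and PRLR differed by −7.08 (others −5.15 to −3.98). Of the fibroblast markers, DCN differed by 0.30 in LD11R (replicate 7, others 1.69 to 1.95) and LUM by 1.08 (others 2.27 to 3.41). MFSD6L differed by −4.25 in LD5R (replicate 5, others −7.97 to −6.66) and SPRY1 by 3.52 in LD12R (replicate 8, others 2.30 to 2.84).

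For the endothelial genes PECAM1, CDH5 and SELE and the leukocyte gene PTPRC, every rat of one day lay on the other side of 0 from every rat of another. These genes were picked for this pattern, and how many of all genes have it was not counted. For PTPRC, the side of LD3R (day 0) rests on 1 read in each cell type (0.815 basal and 0.729 luminal normalized counts). The difference of PECAM1 on day 0 exceeded that on day 14 by 4.13, that of CDH5 by 3.20 and that of PTPRC by 3.56, with limma adjusted p of 0.140, 0.245 and 0.360 for these contrasts. The difference of SELE, an endothelial adhesion molecule, on day 0 exceeded that on day 14 by 4.33 (adjusted p = 0.0438 for the contrast of these days, 0.0744 over all days) and that on day 7 exceeded that on day 14 by 3.71 (adjusted p = 0.166). On day 14 luminal samples held 130, 165 and 232 normalized counts of SELE against 21.9 to 61.1 on day 0. Basal samples held 54.6, 78.4 and 139 on day 14 against 193 to 564 on day 0.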

How the results depend on the processing

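With replicate numbers as rats, the fit with no replicate block called 5042 genes where the paired fit called 6495, and the paired calls of CDH1, COL1A1, EPAS1, SELE, TGFBR2 and TOP2A were lost. Fits of single days called 6024, 4760 and 2598 genes on day 0, day 7 and day 14. By the 4-fold rule they called 2254, 1772 and 1909 genes, where 3 values per cell type overlap less readily than 9. Leaving out 1 rat gave 5908 to 7575 genes, the highest without LD11L (replicate 6), and 1195 to 1398 by the 4-fold rule. For differences over all days the limma count was 0, but 18 by edgeR, 39 without both rats of high normalized totals and 0 to 112 when 1 rat was left out. The differences between treatments were called for 0 genes under every alternative tried. Over 154 named genes and 20 alternatives (3080 values), 3036 kept direction and side of the threshold, 35 lost the call, 7 gained it and 2 changed sign, IL23A (0.13) and SELE (−1.01) in the fit of day 14 alone. The cause was not tested. With 3 rats per day, the number of rats limits the comparison of days. Its count was 112 without LD11L and 8 without LD11R. Each sample had 12382292 reads or more, and levels under a few reads limit the fold changes of genes near 0 in one cell type.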

Other observations

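The differences of IL23A and SELE passed the test over all days in edgeR but not in limma, and both genes were chosen after their values were seen. IL23A, a subunit of the cytokine interleukin 23, was at 9455 to 10485 normalized counts in the 3 luminal samples of day 0, at 1020, 2933 and 7092 on day 7, and at 741 to 1313 on day 14, while the basal samples lay between 349 and 2041 throughout. Its mean within-rat difference was −2.93, −2.02 and 0.13 on the 3 days (edgeR adjusted p = 0.0284, limma adjusted p = 0.0696 over all days and 0.0438 for day 14 against day 0). The luminal level on day 0 thus lay above every basal value, and on day 14 the values of the cell types overlapped. SELE had mean differences of 3.32, 2.70 and −1.01 (edgeR adjusted p = 0.0284, limma adjusted p = 0.0744 over all days).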
